A study of Mus musculus with 16 samples.

Results

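De novo nucleotide synthesis was represented by 10 genes, 7 of the purine steps (Ppat, Gart, Pfas, Paics, Adsl, Atic and Impdh2) and 3 of the pyrimidine steps (Cad, Dhodh and Umps). They were taken by symbol from the depth-normalized table, which holds 17159 genes, and all 10 had values there and in the FPKM table and passed the filter on low values. The RNA came from CD8+ T cells of C57BL/6 mice that were stimulated through CD3 and CD28 for 2 days and cultured for a further 36 h in 1 of 4 media. These were supernatant of the mouse melanoma line B16F10 with methionine added (supplemented supernatant), the same supernatant without addition (supernatant), fresh medium lacking methionine (methionine-free fresh medium) and fresh medium containing it (complete fresh medium). Each medium had 4 libraries, numbered 0 to 3, which gave 16 libraries in all. The methionine content of the supernatant is not stated, so supernatant and methionine-free fresh medium are together called the media without added methionine, and the other pair the media with it. All groups were activated in the same way, and cells that were never activated were not analysed here. Separate mice or cultures are not stated for the libraries of a medium, so each p-value measures the spread between libraries, which may be technical.

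The purine ring is built on activated ribose phosphate (PRPP), in a chain that starts with Ppat and ends with Atic at inosine monophosphate. Impdh2 then turns inosine monophosphate towards guanine nucleotides. The pyrimidine ring is built first, by Cad and Dhodh, and is joined to PRPP by Umps, which makes uridine monophosphate. Activated T cells that divide draw on both routes for RNA, DNA and nucleotide cofactors, and the purine route takes formyl groups from folate at the Gart and Atic steps.

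The genes lie apart in the genome except for a pair. On chromosome 5 of build GRCm38, Ppat spans 76913249 to 76951578 on the minus strand and Paics spans 76951307 to 76967509 on the plus strand. Their first exons overlap head to head over 272 bases, which is 6.15% of the exon bases of Ppat and 8.67% of those of Paics. The strand used in counting is not given in the sources used here, so reads from the overlap cannot be assigned to one of them. Of the 50-base stretches of Paics, 9.01% also occur in other genes, among them Gm19238, Gm2829 and Gm4797. Impdh2 lies on chromosome 9 at 108560286 to 108565584 on the plus strand, and 39.3% of its 50-base stretches also occur in the pseudogene Impdh2-ps, so part of its reads is uncertain in origin. Umps lies on chromosome 16 at 33954782 to 33967038 on the minus strand, and Cad lies on chromosome 5 at 31054780 to 31078479 on the plus strand. Antisense genes cover 19.7% of the exon bases of Gart (Gm15964) and 6.11% of those of Umps (Gm15829).

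The promoters of the members that changed most between media, with Atic, the third purine gene that holds the same motif, are shown as 30-base stretches from RefSeq (build GRCm38.p6), each read 5′ to 3′ on the gene's own strand. Capitals mark a CACGTG (E-box) in Impdh2, Paics and Atic and a TGACGTCA (CRE) in Umps.
Impdh2, chr9:108560314-108560343, plus strand: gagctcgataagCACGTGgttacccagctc
Paics, chr5:76951087-76951116, plus strand: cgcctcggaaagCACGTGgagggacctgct
Atic, chr1:71557137-71557166, plus strand: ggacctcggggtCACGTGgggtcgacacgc
Umps, chr16:33967017-33967046, minus strand: ggacttctgggTGACGTCAcgggccccaag
Windows from 250 bases before to 50 bases after the RefSeq start were searched on both strands for 6 motifs, and 8 of the 10 members matched a window, Pfas and Dhodh being the other two. CACGTG was in 7.15% of all 32851 windows and TGACGTCA in 1.79%. The CACGTG began 110 bases before the RefSeq start in Impdh2, 203 bases before it in Paics and 7 bases before it in Atic, and the TGACGTCA of Umps began 3 bases after its start. The GENCODE spans begin at 108560286 for Impdh2 and at 71557150 for Atic. By these, the CACGTG of Impdh2 lies within the gene and that of Atic spans its start. CCAAT, a common promoter motif found in 37.4% of windows, was in those of Gart, Paics, Atic and Impdh2. The motif TGATGNAA, searched for as one of ATF4, was in 3.97% of windows. The E2F motifs TTTCGCGC and TTTGGCGC were in 0.323% and 0.514%, and none of these motifs was in the 8 windows. A match is a description of the letters and not evidence of binding.

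Each library held between 25.8 M and 42.31 M reads as recovered from the table. The first principal component of the tested genes held 80.7% of the variance and the second 8.67%. Depth-normalized reads of the CD8 genes Cd8a and Cd8b1 summed to between 43560 and 58920 in every library, and the T cell list (6 genes with values) summed to 77926 to 83795 in supplemented supernatant, 52617 to 54032 in supernatant, 48436 to 49647 in methionine-free fresh medium and 81877 to 84550 in complete fresh medium. Among lists of other cells, the 4 CD4 genes summed to 3323 to 3610 in supplemented supernatant, 4101 to 4610 in supernatant, 3976 to 4121 in methionine-free fresh medium and 1976 to 2142 in complete fresh medium, with Cd4 itself at 134.2 to 200.2. Most of this sum was Zbtb7b, at 1716 to 4136, with Foxp3 at 47.68 to 275.8 and Cd40lg at 17.61 to 55.12. The 5 NK genes summed to 2795 to 2914 in supplemented supernatant, 3132 to 3296 in supernatant, 2031 to 2243 in methionine-free fresh medium and 1426 to 1559 in complete fresh medium. Most of that sum was Eomes, at 987.8 to 2212, and Klre1, at 331.1 to 1317. Klrb1c was at 18.35 to 283.1, Ncr1 at 2.699 to 16.64 and Klra8 at 0 to 1.14. The B cell genes Cd79a, Cd79b, Ms4a1 and Pax5 summed to 359.3 to 379.6 reads in supplemented supernatant, 705.8 to 823.9 in supernatant, 751.2 to 937.1 in methionine-free fresh medium and 493 to 536.9 in complete fresh medium, of which Cd79b made up 352.1 to 915.7 and Ms4a1 0 to 10.21. Cd79b was higher by 0.68 in methionine-free and by 0.58 in supernatant over complete fresh medium and fell by 1.09 in supplemented supernatant over supernatant (adjusted p of 2.01e-11, 7.69e-10 and 1.33e-16). Cd79a, the other of these genes tested, held only 3.598 to 16.81 reads. It changed in the same directions (1.37, 1.07 and -0.81, SE 0.374, adjusted p of 0.00117, 0.00897 and 0.0446). Myeloid genes (7 with values) summed to 271.1 to 332.9 reads in supplemented supernatant, 273.5 to 313.1 in supernatant, 236.6 to 299 in methionine-free fresh medium and 556 to 597.3 in complete fresh medium. Melanoma genes (7 with values) summed to 94.92 to 149.8 reads in supplemented supernatant, 235.7 to 258.5 in supernatant, 258.4 to 287.7 in methionine-free fresh medium and 108.9 to 134.1 in complete fresh medium. Over the libraries Pmel ranged from 22.51 to 181.9 reads, Tyr from 27.3 to 84.67 and Mitf from 16.93 to 68.41. Mc1r was at 0 to 8.948, Mlana at 0 to 7.138, Tyrp1 at 0 to 3.518 and Dct at 0 to 2.043. The part of these lists in the results below was not tested. In bulk RNA, fewer cells of a type and less RNA per cell cannot be told apart.

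Per transcript length, Impdh2 was the most abundant of the 10 in the media with added methionine and in methionine-free fresh medium, and ranked 1 to 2 in supernatant. Dhodh was the least abundant in every library. Impdh2, IMP dehydrogenase, averaged 389 ± 23.3 FPKM in supplemented supernatant, 87.8 ± 5.01 FPKM in supernatant, 95.7 ± 5.56 FPKM in methionine-free fresh medium and 364 ± 16.6 FPKM in complete fresh medium (SD, n = 4 each). It made up 41.5 to 45.3% of the summed FPKM of the 10 genes in supplemented supernatant, 16.6 to 18.3% in supernatant, 17.5 to 18.9% in methionine-free fresh medium and 40.5 to 45% in complete fresh medium. These shares did not overlap between the media with added methionine and those without. Dhodh, the mitochondrial dihydroorotate dehydrogenase, averaged 14.7 ± 1.86 FPKM in supplemented supernatant, 7.69 ± 1.34 in supernatant, 6.64 ± 1.15 in methionine-free fresh medium and 10.3 ± 1.17 in complete fresh medium (SD, n = 4 each).

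The order of the other genes by FPKM depended on the medium. In all 8 libraries of the media with added methionine, Impdh2, Paics and Atic ranked 1, 2 and 3. In the media without it the upper ranks were closer. Impdh2 ranked 1 in methionine-free fresh medium and 1 to 2 in supernatant, Paics ranked 2 to 3 and 1 to 5, and Adsl ranked 2 to 5 in both media. Umps, UMP synthase, ranked 7 to 8 with added methionine but 6 to 7 in supernatant and 4 to 6 in methionine-free fresh medium. Pfas ranked 9 throughout, so the lowest purine and the lowest pyrimidine gene kept their places in every library.

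**Figure D1:**
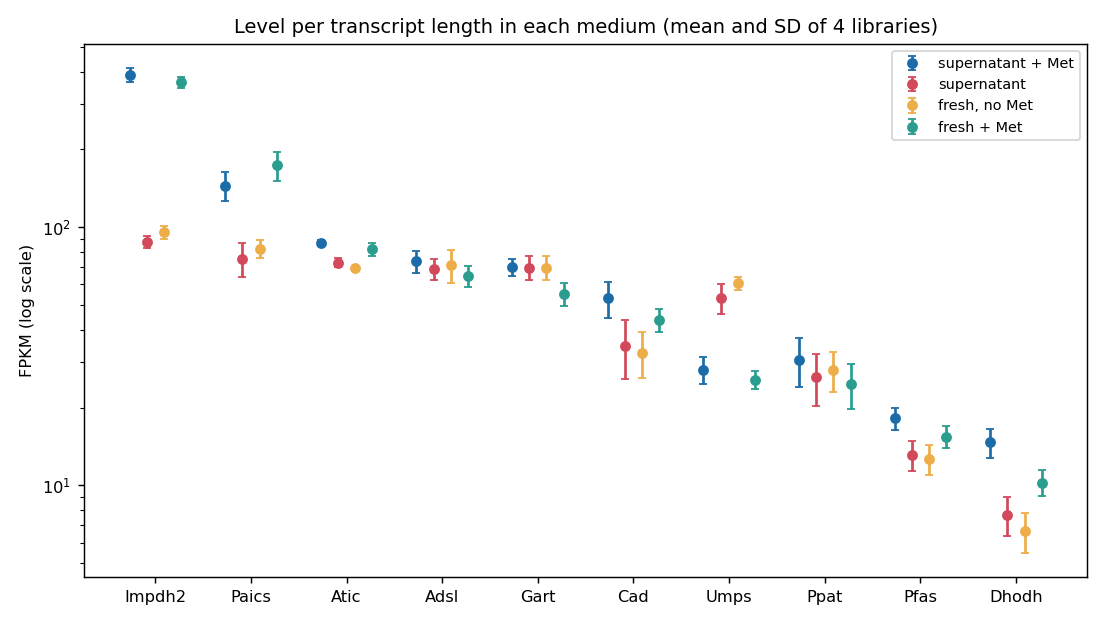
Level of each gene per transcript length (FPKM, log axis) in supplemented supernatant, supernatant, methionine-free fresh medium and complete fresh medium; points are means and bars SDs of 4 libraries. In this order of media Impdh2 averaged 389, 87.8, 95.7 and 364 FPKM, while Umps averaged 28.1, 53.1, 60.5 and 25.6 FPKM and was higher in both media in which Impdh2 was lower.

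Removal of methionine from fresh medium addressed what the amino acid does in the absence of tumour supernatant, and it changed all 10 genes, in both directions. Impdh2 fell 3.66-fold and Paics 2.04-fold, while Umps rose 2.37-fold. Of the 10, 4 were higher and 6 lower at an adjusted p below 0.05 (limma over 12469 genes), and 3 of them changed at least 2-fold. Across all genes tested, 85.6% were called, 43.3% higher and 42.3% lower, and 27.7% were called with a change of at least 2-fold, so being called did not set the members apart. Among the purine genes 3 rose and 4 fell, with a median log2 fold change of -0.20, and among the pyrimidine genes 1 rose and 2 fell, with a median of -0.28, beside a median of 0.01 over all genes.

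The purine genes at the head of the chain moved little. Ppat, the amidotransferase of the first committed step, had 4157, 4071, 4083 and 4392 depth-normalized reads in supplemented supernatant, 3703, 3671, 3569 and 3491 in supernatant, 3542, 3564, 3645 and 3774 in methionine-free fresh medium and 3435, 3349, 3118 and 3105 in complete fresh medium. The libraries of methionine-free and complete fresh medium did not overlap, and Ppat was higher without methionine by 0.16 on the log2 scale (SE 0.036, adjusted p = 1.37e-04). Gart, whose protein carries the glycinamide ribonucleotide steps and a formyl transfer, had 8209, 8336, 9035 and 8584 reads in supplemented supernatant, 8704, 8728, 8511 and 8545 in supernatant, 8591, 8535, 8855 and 8606 in methionine-free fresh medium and 6986, 6806, 6265 and 6114 in complete fresh medium. Complete fresh medium stood alone, with its 4 libraries below the other 12. Gart was higher without methionine by 0.40 (SE 0.035, adjusted p = 1.68e-12). Pfas, which adds a further nitrogen from glutamine, held 3037 to 3210 reads without methionine against 3389 to 3720 in complete fresh medium, a log2 fold change of -0.20 (SE 0.035, adjusted p = 2.82e-06).

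Paics showed the largest change of the genes that lead to inosine monophosphate. It encodes the enzyme that carboxylates the imidazole ring and adds aspartate to it. Its reads were 11211, 11647, 11629 and 11071 in supplemented supernatant, 6486, 5969, 6095 and 6252 in supernatant, 6504, 6446, 6936 and 6723 in methionine-free fresh medium and 13742, 13352, 13412 and 13753 in complete fresh medium. Every library with added methionine was above every library without it. The log2 fold change of methionine-free over complete fresh medium was -1.03 (SE 0.030, adjusted p = 2.62e-25), opposite in sign to that of Ppat, whose first exon overlaps it. The ratio of Paics to Ppat reads, compared only between media, was 2.73 ± 0.16 in supplemented supernatant, 1.72 ± 0.071 in supernatant, 1.83 ± 0.052 in methionine-free fresh medium and 4.18 ± 0.22 in complete fresh medium (SD, n = 4 each).

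The last steps to inosine monophosphate differed from each other in direction. Adsl, adenylosuccinate lyase, which also acts on the way to AMP, had 4445 to 4522 reads in methionine-free fresh medium against 3599 to 4145 in complete fresh medium and was higher by 0.21 (SE 0.036, adjusted p = 2.56e-06). Atic, the formyltransferase that closes the ring, had 6071 to 6453 reads against 6946 to 7515 and was lower, with a log2 fold change of -0.21 (SE 0.031, adjusted p = 2.56e-07). Neither pair of groups overlapped. Both changes were smaller than the median absolute change of all genes tested, 0.57.

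Impdh2, the step that commits inosine monophosphate to guanine nucleotides, was the member that changed most in either direction. It had 19013, 18972, 19902 and 18312 reads in supplemented supernatant, 4560, 4562, 4555 and 4455 in supernatant, 4674, 4833, 4800 and 5075 in methionine-free fresh medium and 17710, 17117, 17625 and 18409 in complete fresh medium. The 8 libraries without added methionine held 5075 reads or fewer and the 8 with it 17117 or more. Methionine-free over complete fresh medium gave a log2 fold change of -1.87 (SE 0.030, adjusted p = 2.23e-32).

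The pyrimidine genes split between the first and last steps. Cad, whose protein joins carbamoyl phosphate to aspartate and closes the ring, had 12017, 11456, 12353 and 11797 reads in supplemented supernatant, 7709, 8547, 8144 and 8117 in supernatant, 8138, 7833, 8227 and 7944 in methionine-free fresh medium and 9853, 10613, 9561 and 9113 in complete fresh medium. All 8 libraries without added methionine lay below all 8 with it, and removal in fresh medium gave a log2 fold change of -0.28 (SE 0.036, adjusted p = 1.35e-08). Dhodh had 1135, 1005, 1215 and 1298 reads in supplemented supernatant, 603.7, 682.5, 663.4 and 624.4 in supernatant, 573, 569.5, 576 and 546.5 in methionine-free fresh medium and 869.1, 838.2, 775.5 and 710.7 in complete fresh medium. It fell too, by 0.49 on the log2 scale (SE 0.066, adjusted p = 3.18e-08), with no overlap between groups.

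Umps, which joins the ring to PRPP and decarboxylates the product, moved against Cad and Dhodh. It had 3005, 3120, 3188 and 3180 reads in supplemented supernatant, 6076, 6216, 5718 and 5623 in supernatant, 6603, 6521, 6932 and 6808 in methionine-free fresh medium and 2875, 2843, 2841 and 2775 in complete fresh medium. All 8 libraries without added methionine were above all 8 with it. The log2 fold change of methionine-free over complete fresh medium was 1.24 (SE 0.033, adjusted p = 1.96e-26). The ratio of Umps to Cad reads was 0.263 ± 0.01 in supplemented supernatant, 0.728 ± 0.043 in supernatant, 0.836 ± 0.019 in methionine-free fresh medium and 0.29 ± 0.016 in complete fresh medium (SD, n = 4 each).

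**Figure D2:**
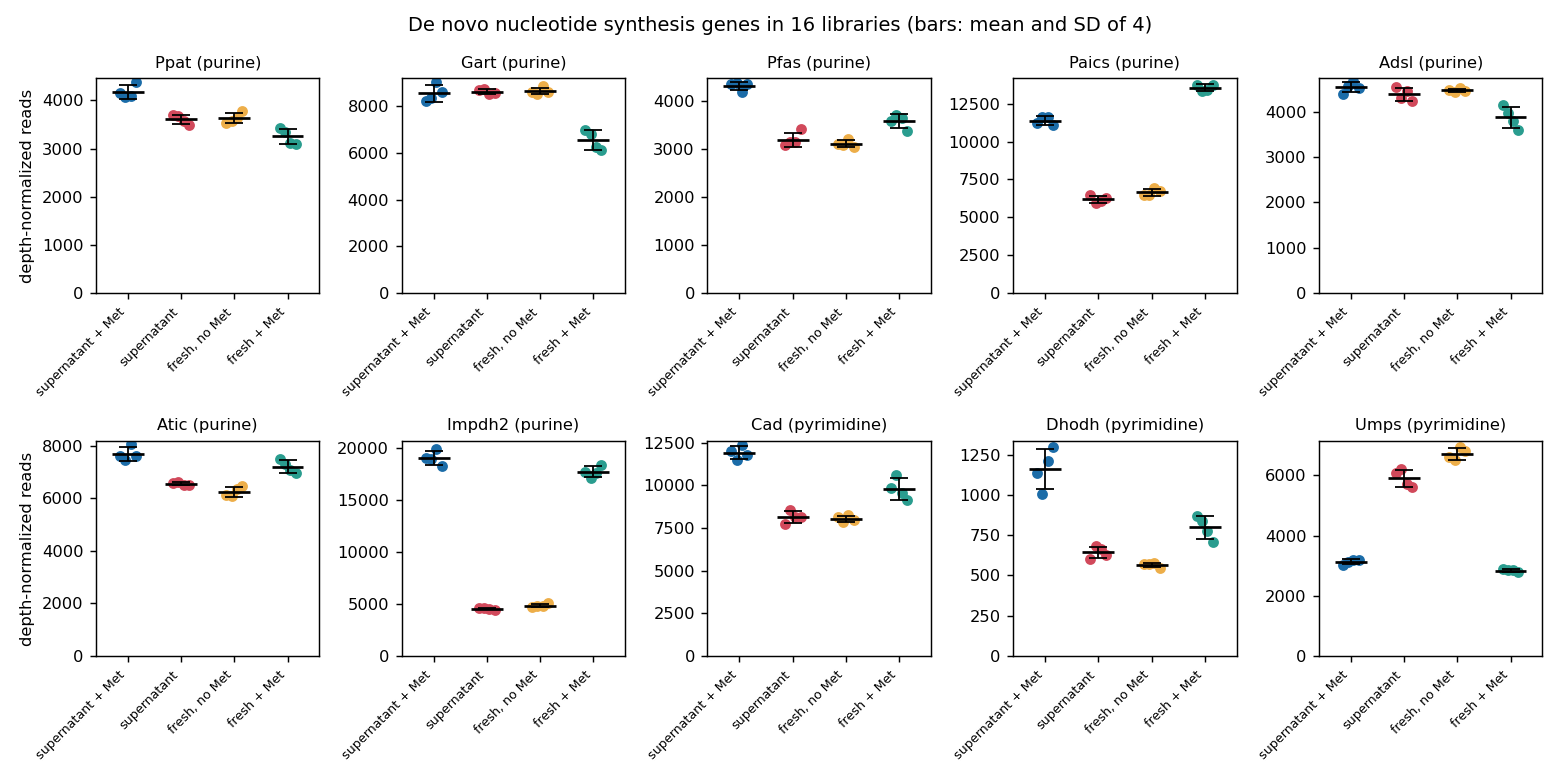
Depth-normalized reads of each of the 10 genes in the 16 libraries, by medium; points are libraries, lines the mean and bars the SD of 4, and every axis starts at 0. Impdh2 (4455 to 5075 reads without added methionine, 17117 or more with it) and Umps (5623 or more without, 3188 or fewer with it) separate the media in opposite directions.

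Whether the small changes in fresh medium were called depended on the scaling and on the measure. Under scaling to total reads, which put the median log2 fold change over all genes at 0.17, Pfas (-0.04) and Atic (-0.05) were no longer called, with adjusted p values of 0.247 and 0.138. From log2(FPKM + 1), 6 of the 10 were called. Ppat (0.18, adjusted p = 0.475), Pfas (-0.27, 0.0541), Adsl (0.13, 0.35) and Cad (-0.43, 0.0529) were not called but kept their signs. All 10 were called there once the replicate number was a block.

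Supernatant set against complete fresh medium gave the members the same signs. This comparison shares the complete fresh libraries with the one above, so the pair is not independent. Again 4 were higher and 6 lower, where 85.5% of all genes tested were called, 43% higher and 42.5% lower, and 27.6% were called with a change of at least 2-fold. Impdh2 fell 3.91-fold (log2 fold change -1.97, SE 0.030, adjusted p = 7.58e-33) and Paics 2.19-fold (-1.13, SE 0.030, adjusted p = 2.05e-26), while Umps rose 2.08-fold (1.06, SE 0.033, adjusted p = 1.8e-24).

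The remaining 7 members changed by less than the 0.57 that was the median absolute log2 change of all genes. Gart was higher by 0.40, Adsl by 0.18 and Ppat by 0.15. Dhodh (-0.31), Cad (-0.27), Pfas (-0.16) and Atic (-0.14) were lower. Pfas was called although its groups overlapped: 1 supernatant library held 3415 reads against 3389 in the lowest complete fresh library. Under total-read scaling Atic turned to 0.01 (adjusted p = 0.749) and Pfas stood at -0.02 (adjusted p = 0.657), and from FPKM 6 members were called, while Ppat and Adsl were not called from FPKM with the replicate block.

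Addition of methionine to supernatant tested the amino acid within the tumour-conditioned medium. With it 7 genes were higher, 1 was lower and 2 were not called, against a background of 83.7% called, 41.8% higher and 41.8% lower, with 22.3% called and changed at least 2-fold. Impdh2 rose 4.2-fold (log2 fold change 2.07, SE 0.030, adjusted p = 4.78e-33), the largest rise of the 10. Umps was the gene that fell, by 0.92 on the log2 scale (SE 0.033, adjusted p = 1.45e-22). The comparison shares the supernatant libraries with the preceding one.

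Both pyrimidine genes upstream of Umps rose. Dhodh was higher by 0.85 (SE 0.066, adjusted p = 1.17e-13) and Cad by 0.55 (SE 0.036, adjusted p = 1.62e-15). Among the purine genes, Paics was higher by 0.88 (SE 0.030, adjusted p = 3.67e-23), Pfas by 0.43, Atic by 0.23 and Ppat by 0.21. Gart had a log2 fold change of -0.01 (adjusted p = 0.705) and Adsl of 0.05 (adjusted p = 0.177), with overlapping groups in both. Under total-read scaling, which moved the median of all genes to -0.14, Gart (-0.15, adjusted p = 2.89e-04) and Adsl (-0.08, adjusted p = 0.0368) were called lower, and Gart was also called lower after quantile normalization (-0.10, adjusted p = 0.0113). Ppat was not called from FPKM without the block (adjusted p = 0.411).

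**Figure D3:**
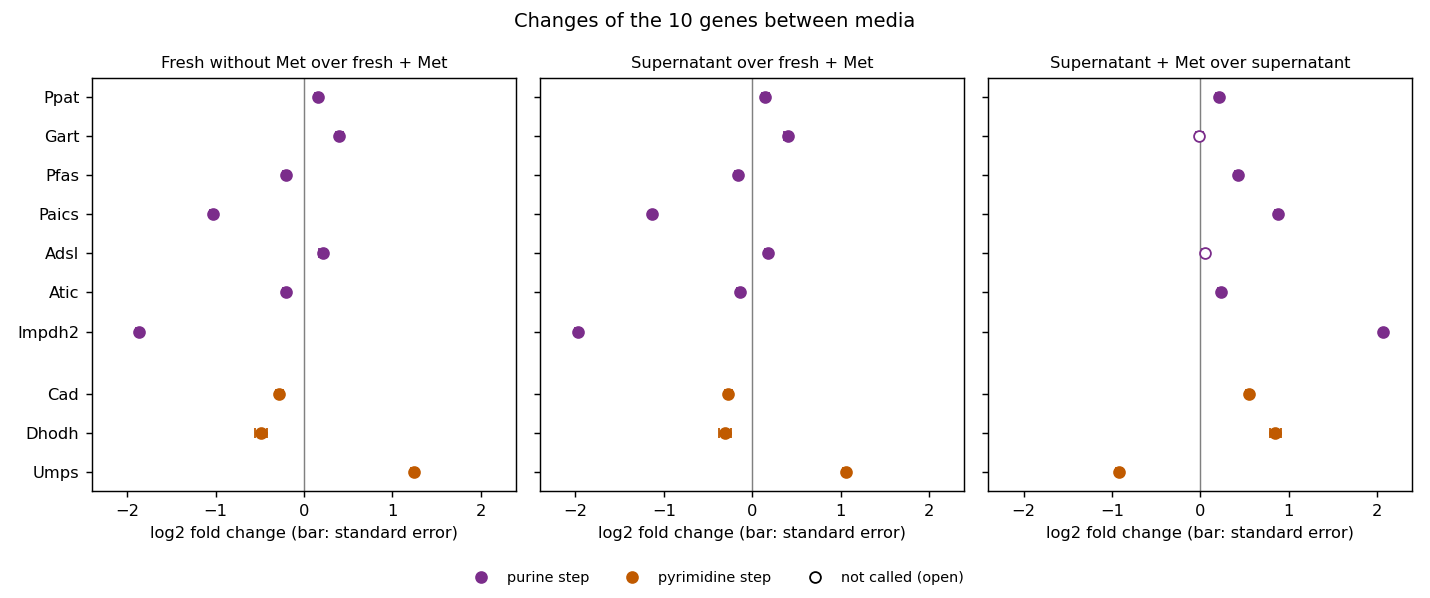
Log2 fold change of each gene in methionine-free over complete fresh medium, supernatant over complete fresh medium and supplemented supernatant over supernatant; bars are standard errors, purple marks purine and orange pyrimidine steps, and open circles genes not called. Impdh2 (-1.87, -1.97 and 2.07) and Umps (1.24, 1.06 and -0.92) lie at opposite ends of each panel, and Gart and Adsl are the open circles of the third panel.

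Supplemented supernatant and complete fresh medium both hold methionine, and the members still differed between them. Of the 10, 9 were higher and 1 lower, where 65% of all genes were called, 32.5% higher and 32.5% lower, but no member changed 2-fold, as did 4.84% of all genes. Dhodh was higher by 0.54 (SE 0.066, adjusted p = 1.23e-08), Gart by 0.39, Ppat by 0.36, Cad by 0.28, Pfas by 0.27 and Adsl by 0.23. Paics was the exception, with a log2 fold change of -0.25 (SE 0.030, adjusted p = 9.55e-09) and no overlap between its groups. Impdh2 (0.10, adjusted p = 0.00321) and Atic (0.09, adjusted p = 0.00852) were called with overlapping groups, and Umps was higher by 0.14 without overlap. From FPKM 2 members were called, and with the replicate block Atic, Impdh2 and Umps were not. Atic was also not called without replicate 2 of supplemented supernatant (adjusted p = 0.0519).

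Supernatant and methionine-free fresh medium were close. Over methionine-free fresh medium, supernatant had 1 member higher, 3 lower and 6 uncalled, where 26.8% of all genes were called, 14% higher and 12.9% lower. No member differed 2-fold, as did 0.385% of all genes. Umps was lower, with a log2 fold change of -0.19 (SE 0.033, adjusted p = 5.92e-05) and no overlap. Paics (-0.10, adjusted p = 0.0115), Impdh2 (-0.10, adjusted p = 0.0174) and Dhodh (0.18, adjusted p = 0.0367) passed the threshold narrowly. Without replicate 2 of methionine-free fresh medium or replicate 1 of supernatant Paics was not called (adjusted p = 0.0693 and 0.052), and without replicate 3 of either medium Impdh2 was not (0.0909 and 0.0561). Dhodh lost its call in 6 of the 8 fits that left out a library of these media, with adjusted p values of 0.0554 to 0.107, in edgeR (0.067), DESeq2 (0.0662), under total-read scaling (0.0572), after quantile normalization (0.0571) and with no filter (0.0595). Atic, not called here, was called higher after quantile normalization (0.08, adjusted p = 0.0444). From FPKM with the replicate block only Umps was called.

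The responses to methionine in supernatant and in fresh medium differed for most members. The log2 fold change of supplemented supernatant over supernatant, minus that of complete over methionine-free fresh medium, was positive and called for 8 genes, negative for 1 and not called for 1, while 52.6% of all genes were called, 27.6% positive and 25% negative. No member differed 2-fold between the media, as did 4.82% of all genes. Gart had -0.01 in supernatant and -0.40 in fresh medium, a difference of 0.39 (SE 0.050, adjusted p = 5.68e-08). Ppat had 0.21 and -0.16, a difference of 0.37 (SE 0.051, adjusted p = 2.39e-07), so methionine went with more Ppat in one medium and less in the other. Dhodh had 0.85 and 0.49, a difference of 0.36 (adjusted p = 0.00162), and Umps -0.92 and -1.24, a difference of 0.33 (adjusted p = 6.29e-07).

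Cad, Adsl, Pfas and Impdh2 had smaller positive differences, 0.27, 0.26, 0.23 and 0.20. Paics alone had a negative one, -0.15 (SE 0.043, adjusted p = 0.00359). Atic, at 0.23 in supernatant and 0.21 in fresh medium, differed by 0.02 (adjusted p = 0.684). From FPKM none of the 10 differences was called, and with the replicate block those of Paics, Cad and Dhodh were not, with adjusted p values of 0.238, 0.176 and 0.0763.

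**Figure D4:**
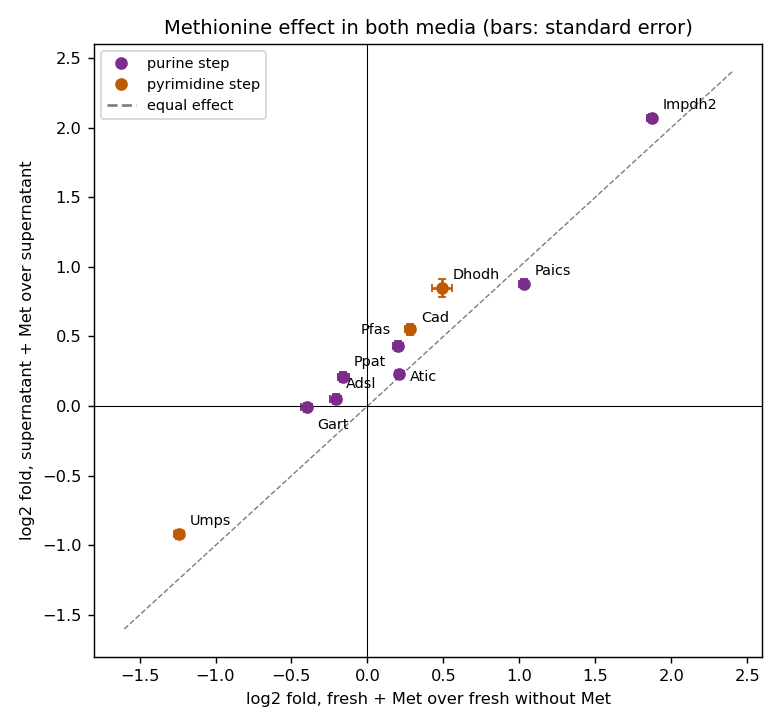
Log2 fold change of complete over methionine-free fresh medium (horizontal) and of supplemented supernatant over supernatant (vertical) for each gene; bars are standard errors, purple marks purine and orange pyrimidine steps, and the dashed line marks equal changes. Paics lies below the line (difference -0.15), Atic on it (0.02) and the other genes above it, with Gart (0.39) and Ppat (0.37) farthest from it.

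Purine and pyrimidine steps were set against each other in each library as the mean log2 level of the 7 purine genes minus that of the 3 pyrimidine genes, as a description with no test. The difference was 1.007 to 1.148 in supplemented supernatant, 0.594 to 0.739 in supernatant, 0.675 to 0.736 in methionine-free fresh medium and 1.175 to 1.272 in complete fresh medium. It was lower by 0.52 in methionine-free than in complete fresh medium and higher by 0.39 in supplemented supernatant than in supernatant, where the pooled SD within groups was 0.049. Both signs rested on Impdh2 and Umps. Without them, with the 6 genes to inosine monophosphate set against Cad and Dhodh, the first became 0.28 and the second -0.40, opposite in sign. This choice of genes was made after their values were seen.

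Variation among the members over the 16 libraries did not follow the division into purine and pyrimidine. Pearson's r of log2 values was -0.98 for Impdh2 and Umps, -0.97 for Paics and Umps and 0.97 for Paics and Impdh2. Cad and Dhodh had an r of 0.97, Cad and Pfas of 0.96, and Gart and Adsl of 0.94. Ppat and Paics, whose first exons overlap, had an r of -0.08. These values describe 16 libraries in 4 groups and share the libraries' depth normalization.

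Genes of the purine branches and of purine interconversion were mostly lower in the media without added methionine. They include the steps from inosine monophosphate to AMP and GMP and the enzymes (AMP deaminases and GMP reductases) that return these to it. Of 9 listed, 7 were tested; 1 was higher and 5 lower in methionine-free over complete fresh medium (median -0.47), 5 were lower and none higher in supernatant over complete fresh medium (median -0.40), and all 7 were higher in supplemented supernatant over supernatant (median 0.68). Over all genes tested, 42.3%, 42.5% and 41.8% were called in the direction of most of the list in these comparisons. Impdh1, the other IMP dehydrogenase, averaged 6040 ± 288 reads in supplemented supernatant, 3240 ± 157 in supernatant, 2770 ± 74.9 in methionine-free fresh medium and 7064 ± 216 in complete fresh medium (SD, n = 4 each), with log2 fold changes of -1.35, -1.12 and 0.90 in the same order of comparisons, which holds for the triplets below. Its change in supernatant was smaller than in fresh medium by 0.45 (difference -0.45, adjusted p = 7.18e-09), where that of Impdh2 was larger. The ratio of Impdh2 to Impdh1 reads was 3.16 ± 0.14 in supplemented supernatant, 1.4 ± 0.073 in supernatant, 1.75 ± 0.075 in methionine-free fresh medium and 2.51 ± 0.15 in complete fresh medium.

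Gmps, which makes guanosine monophosphate from the product of Impdh2, followed with -0.69, -0.71 and 0.68. On the adenine side Adss, adenylosuccinate synthase, moved little (-0.09, -0.12 and 0.23), and the first of these values turned to 0.07 under total-read scaling and to 0.00 from FPKM. Adssl1, its muscle-type relative, changed by -2.99, -2.77 and 2.43 from low levels, 375.2 ± 39 reads in supplemented supernatant, 69.62 ± 13.6 in supernatant, 59.63 ± 9.52 in methionine-free fresh medium and 476 ± 26.8 in complete fresh medium. Ampd2, AMP deaminase, rose by 0.84 with methionine in supernatant but was higher by 0.15 without it in fresh medium (-0.0085 and not called from FPKM), and the difference between media was called (adjusted p = 9.16e-18).

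Beyond UMP, the CTP synthases differed in direction between the media without added methionine and complete fresh medium. Ctps was higher by 0.47 in methionine-free and by 0.48 in supernatant over complete fresh medium, and Ctps2 was lower, with log2 fold changes of -1.21 and -1.17. Both rose when methionine was added to supernatant, Ctps by 0.18 and Ctps2 by 1.03. The ratio of Ctps to Ctps2 reads was 1.49 ± 0.021 in supplemented supernatant, 2.69 ± 0.087 in supernatant, 2.77 ± 0.041 in methionine-free fresh medium and 0.863 ± 0.018 in complete fresh medium (SD, n = 4 each). Upstream, 5 genes of PRPP supply were tested, with 2 higher, 2 lower and 1 uncalled without methionine in fresh medium, 2 higher and 3 lower in supernatant over complete fresh medium, and 3 higher and 2 lower with methionine in supernatant. For all genes tested the called shares were 85.6%, 85.5% and 83.7%, with 41.8 to 43.3% in each direction. The synthetases Prps1 (-0.27, -0.24 and 0.40) and Prps2 (-0.44, -0.54 and 0.49) went with Cad, and the associated protein Prpsap1 (0.59, 0.60 and -0.38) went the other way. Prps1l3 changed by 1.27, 1.39 and -1.18, but 19.7% of its 50-base stretches recur mainly in Prps1.

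**Figure D5:**
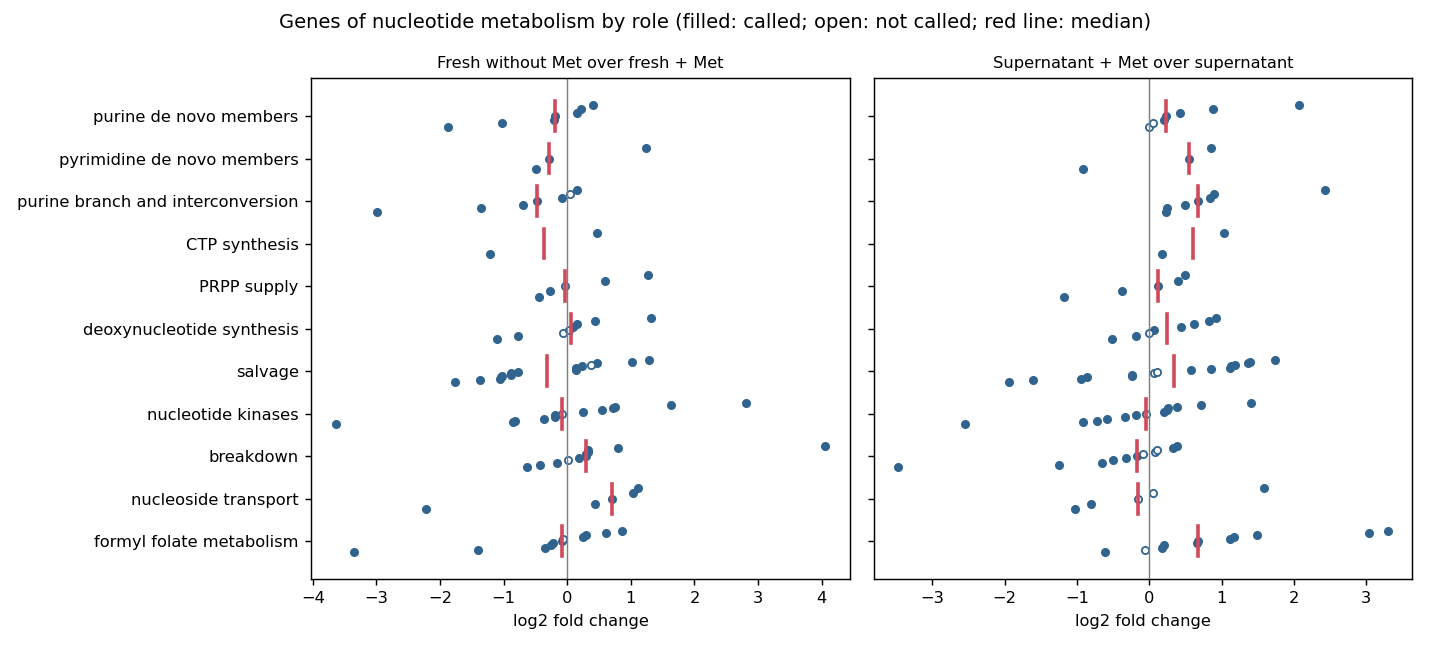
Log2 fold changes of genes of nucleotide metabolism grouped by role, in methionine-free over complete fresh medium and in supplemented supernatant over supernatant; each point is a gene, filled where called, and the red line is the median of its row. The purine branch and interconversion genes have medians of -0.47 and 0.68, and the formyl folate genes of -0.08 and 0.67.

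Genes of formyl folate metabolism include suppliers of the donor for Gart and Atic and also Aldh1l1 and Aldh1l2, which consume it. With methionine in supernatant 9 of 11 rose and 1 fell, with a median of 0.67, where 41.8% of all genes rose, while in fresh medium 4 were higher and 6 lower without methionine (median -0.08). In supernatant over complete fresh medium 5 were higher and 6 lower, where 43% and 42.5% of all genes were. For methionine-free over complete fresh medium these shares of all genes were 43.3% and 42.3%. Mthfd1, the cytosolic enzyme that makes the formyl donor, changed by -0.35, -0.41 and 0.66 in the 3 comparisons. Mthfd2, its mitochondrial relative, had 13504 ± 178 reads in supplemented supernatant, 6277 ± 194 in supernatant, 6307 ± 128 in methionine-free fresh medium and 6576 ± 177 in complete fresh medium. It thus rose by 1.11 with methionine in supernatant, with -0.06 and uncalled for removal from fresh medium (0.10 and called higher under total-read scaling), a difference between media of 1.05 (SE 0.041, adjusted p = 3.66e-20). Aldh1l2, the mitochondrial formyl tetrahydrofolate dehydrogenase, rose by 3.30 with methionine in supernatant to 2013 ± 107 reads in supplemented supernatant, against 204.2 ± 19.3 in supernatant.

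Salvage genes, which recover bases and nucleosides, were divided. Of 16 tested, 7 were higher and 8 lower in methionine-free over complete fresh medium, 8 and 8 in supernatant over complete fresh medium, and 8 and 6 in supplemented supernatant over supernatant. Of all genes tested, 85.6%, 85.5% and 83.7% were called in these comparisons, 41.8 to 43.3% in each direction. Hprt, which recovers hypoxanthine and guanine, changed by -1.37, -1.36 and 1.36, in the direction of Impdh2. Uridine kinases did not all move together. Uck1 (1.02, 0.87 and -0.95) and Uck2 (0.47, 0.51 and -0.24) changed in the direction of Umps, and Uckl1 (-1.77, -1.55 and 1.74) in the other. Dck, deoxycytidine kinase, changed by -1.06 without methionine in fresh medium and by 1.12 with methionine in supernatant.

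The other lists held genes in both directions. Across all genes tested, 85.6%, 85.5% and 83.7% were called in the 3 comparisons, with 41.8 to 43.3% in each direction. For deoxynucleotide synthesis 4 were higher and 2 lower of 8 without methionine in fresh medium, 1 and 5 in supernatant over complete fresh medium, and 5 and 2 with methionine in supernatant. Rrm1, the large subunit of ribonucleotide reductase, changed by -1.10, -1.44 and 0.92. Nucleotide kinases had 6 higher and 6 lower of 13 in each of the 3 comparisons. Ak4 (-3.64, -2.86 and 1.41) and Ak1 (2.81, 2.31 and -2.55), both adenylate kinases, were at the ends of that list. Breakdown genes had 7 higher and 3 lower of 11 in each comparison with complete fresh medium and 2 higher and 6 lower with methionine in supernatant, where Xdh, xanthine dehydrogenase, fell by 1.25. Nucleoside transporters had 4 higher and 1 lower of 5 in each comparison with complete fresh medium and 1 higher and 2 lower with methionine in supernatant. Slc28a2, a concentrative nucleoside transporter, was higher by 1.11 without methionine in fresh medium and fell by 1.03 with methionine in supernatant.

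Mat2a, whose product makes S-adenosylmethionine from methionine, lies outside the pathway and had 11438 ± 370 reads in supplemented supernatant, 35760 ± 518 in supernatant, 35416 ± 620 in methionine-free fresh medium and 6636 ± 61.7 in complete fresh medium (SD, n = 4 each). Myc, a transcription factor known to bind E-boxes near nucleotide synthesis genes, was higher by 1.41 without methionine in fresh medium and by 1.51 in supernatant over complete fresh medium, and fell by 0.57 with methionine in supernatant. Impdh2, Paics, Pfas, Atic, Cad and Dhodh had the opposite sign in each of these comparisons, and Umps the same sign. Ppat, Gart and Adsl were called in the direction of Myc in the first pair of comparisons but not with methionine in supernatant. Between the media with methionine, Myc was higher by 0.94 in supplemented supernatant than in complete fresh medium. There every member except Paics was also called higher, as were 32.5% of all genes tested. A link between Myc and the members was not tested. Atf4, a transcription factor of amino acid stress, was higher by 0.74 and 0.91 in the first pair of comparisons and had -0.03 (adjusted p = 0.235) with methionine in supernatant.

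For a score, the log2 values of each member were centred and scaled over the 16 libraries, and the members were then averaged. The genes most like the score of the 6 genes to inosine monophosphate, among 10220 candidates, were Dnajc11 (Pearson's r of 0.976), Srsf2 (0.975), St7 (0.969), Gng5 (0.969) and Setd6 (0.965). For the score of Cad, Dhodh and Umps they were 4933439F18Rik (0.962), Ewsr1 (0.958), Hmox1 (0.958), Pabpc4 (0.956) and Srsf2 (0.954). Some members of a score moved against each other (r of -0.71 for Gart and Paics, -0.82 for Cad and Umps, -0.79 for Dhodh and Umps). A gene like the score is therefore not like each of its members. Srsf2 was in both lists. These are descriptions over libraries that share a depth normalization and fall into 4 groups.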

How the data were processed

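RNA sequencing of 16 libraries, 4 in each of 4 media, was analysed from 2 tables. The authors' first deposited table gives a depth-normalized signal per gene. Multiplying it by a single factor for each library returned whole reads, within 0.001 of a read, for 100% of values. The second deposited table gives FPKM. Tools named in the submitters' processing notes are TopHat2 2.0.13 with Bowtie2 2.2.1, Cuffdiff 2.2.1 with Cufflinks, and FastQC 0.11.3, and the builds are GRCm38 and mm10; the counting tool, the annotation and the strand are not given in the sources used here. limma 3.58.1 under R 4.3.3 was fitted with 4 group means and a mean-variance trend to log2(depth-normalized value + 1), a scale that understates changes of low genes. Tests were two-sided and covered 12469 genes (72.7%), those whose mean was 10 or more. Calls needed an adjusted p (Benjamini-Hochberg, all tested genes) below 0.05. The script was tested on simulated data.

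Alternatives were a pseudocount of 8, no filter, total-read and quantile scaling, log2(FPKM + 1) for genes with a mean FPKM of at least 1, a replicate block, each library left out, and edgeR 4.0.16 and DESeq2 1.42.0 on the recovered reads of 15 libraries. Replicate 1 of methionine-free fresh medium was left out of those count tests because its factor was near 1. Nothing in the labels pairs libraries by replicate number. Residuals of 24 same-numbered pairs correlated by -0.0668 to 0.068 in depth-normalized values but by 0.135 to 0.635 in FPKM, so FPKM calls are also given with the block. For 24 pairs within a medium, the mean chi-square of a gene was 2.58 to 9.01, above counting error.

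The members and lists were chosen with earlier results of these data known. Genes named are the 10 members, 9 neighbours, Mat2a, Myc, Atf4, Mthfd1 and Mthfd2, and genes from 9 lists (92 genes, 78 tested), taken from the 2 called genes per direction, list and comparison that changed most with a mean of at least 100, and 5 genes of like pattern for each score, also with a mean of at least 100. Coordinates are from GENCODE for GRCm38 and sequences from RefSeq. A marker of the B cell list is not reported here.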

Additional observations from a re-analysis of the deposited data

Results flagged for a closer look

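Among 80 sets of 4 libraries (10 genes, 4 media, both tables), 5 held a library that stood apart from the other 3, where chance flags about 1 in 20. In depth-normalized reads, Pfas had 4194 reads in replicate 2 of supplemented supernatant, below the other 3 libraries at 4351 to 4379, and Impdh2 had 4455 in replicate 3 of supernatant, below 4555 to 4562. In FPKM, replicate 2 stood apart for Impdh2 in methionine-free fresh medium, at 104, and in complete fresh medium for Ppat, at 17.4, and Umps, at 22.53. Without replicate 3 of supernatant, Impdh2 lost its call against methionine-free fresh medium (limma, adjusted p = 0.0561). No call of Pfas changed without replicate 2 of supplemented supernatant, and FPKM libraries were not left out.

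The change with methionine differed between supernatant and fresh medium for 9 of the 10 genes, by the limma interaction term on the log2 scale, where 52.6% of all genes tested differed. The differences were 0.39 for Gart, 0.37 for Ppat, 0.36 for Dhodh, 0.33 for Umps, 0.27 for Cad, 0.26 for Adsl, 0.23 for Pfas, 0.20 for Impdh2 and -0.15 for Paics.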

How the results depend on the processing

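A pseudocount of 8 and a replicate block on depth-normalized values changed no call of a member in any of the 6 comparisons; with the block 10655 genes were called in methionine-free over complete fresh medium, against 10672. From FPKM, members called numbered 6 in methionine-free and 6 in supernatant over complete fresh medium, 2 in supplemented supernatant over complete fresh medium, 0 in supernatant over methionine-free fresh medium and 0 for the difference between media, where the depth-normalized values gave 10, 10, 10, 4 and 9; all genes called were 6365, 6280, 1873, 37 and 739 there and 5649 in supplemented supernatant over supernatant, against 10672, 10664, 8106, 3344, 6557 and 10433. FPKM with the replicate block gave 1 member and 1432 genes in supernatant over methionine-free fresh medium and 3848 genes for the difference between media. Leaving out 1 library at a time gave 2 to 4 members in supernatant over methionine-free fresh medium. Leaving out Impdh2 and Umps, chosen after seeing the data, turned the purine minus pyrimidine difference to 0.28 in methionine-free and 0.17 in supernatant over complete fresh medium (-0.52 and -0.54 with them) and to -0.40 in supplemented supernatant over supernatant (0.39), and moved it to -0.23 in supplemented supernatant over complete fresh medium (-0.15) and to -0.10 in supernatant over methionine-free fresh medium (-0.02). Total-read scaling turned the sign of Atic (0.0104) in supernatant over complete fresh medium, of Adsl (-0.08) and Prpsap2 (-0.0161) in supplemented supernatant over supernatant, and of Adss, Prpsap2 and Mthfd2 in methionine-free (0.067, 0.132 and 0.10) and in supernatant (0.0252, 0.0394 and 0.079) over complete fresh medium. Quantile normalization turned Mthfd2 (0.0387) in supernatant over complete fresh medium. FPKM, with or without the block, turned Adss (0.0024) and Ampd2 (-0.0085) in methionine-free over complete fresh medium and Prps1l3 (-0.0108) in supernatant over methionine-free fresh medium. The cause of these changes was not tested. In 15 libraries, edgeR and DESeq2 each changed 1 member's call, that of Dhodh in supernatant over methionine-free fresh medium. Reads shared with Impdh2-ps, between Ppat and Paics, between Paics and other genes, and with antisense genes limit the levels of those members. In methionine-free over complete fresh medium the changes of Ppat (0.16), Pfas (-0.20), Adsl (0.21) and Atic (-0.21) are near in size to the 0.17 by which total-read scaling moved the median of all genes.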
